A study of Mus musculus with 12 samples.

Results

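The let-7 and miR-98 family was followed through small RNA libraries of mouse retina. Its members were taken by name: the mouse (mmu) precursors mmu-let-7a-1, mmu-let-7b, mmu-let-7c-2, mmu-let-7d, mmu-let-7e, mmu-let-7f-1, mmu-let-7f-2, mmu-let-7g, mmu-let-7i and mmu-mir-98, which are 10 of the 1532 precursors with reads in the deposited tables and 10 of the 997 annotated ones. A further 4 let-7 copies in the tables, let-7a-2, let-7c-1, let-7j and let-7k, were left out and enter only through reads they share with members. All mice were labelled db/db on a KsJ background; without a functional leptin receptor these animals grow obese and develop diabetes. In the 6 Keluoxin libraries the mice had been given Keluoxin, a Chinese herbal capsule, and the 6 model libraries were labelled model, taken here as db/db mice without it. The labels give no age, dose or duration, no non-diabetic mice were analysed here, and they do not tell whether each sample is a separate animal, so the p-values reflect sample-to-sample spread that can include technical spread. The tissue is the retina by its source label, although the extraction protocol mentions exosomes.

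MicroRNAs of the let-7 family are cut from hairpin precursors by Drosha and Dicer, and the strand from the 5′ side of the hairpin (the 5p arm) is loaded into Argonaute and represses mRNAs that pair with its seed. The precursors of most members are bound by LIN28, which recruits enzymes that add U to the hairpin and so block maturation, and for many of them a single added U instead helps Dicer to cut. Family levels rise as neural tissue differentiates, and in the retina let-7 is known for promoting the change of progenitors from early to late cell fates. The opposite strand (the 3p arm) is mostly degraded.

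The mature 5p sequences are shown because the members differ from each other in so few bases; capitals mark the seed, bases 2 to 8 counted from the 5′ end. They come from the RefSeq table for GRCm38.p6, in which all 10 precursors were found, and 20 of 20 mature sequences also occur in the precursors of the deposited tables.
let-7a-5p: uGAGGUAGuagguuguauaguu
let-7b-5p: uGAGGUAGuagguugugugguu
let-7c-5p: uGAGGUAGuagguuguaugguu
let-7d-5p: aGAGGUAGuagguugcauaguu
let-7e-5p: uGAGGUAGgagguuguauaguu
let-7f-5p: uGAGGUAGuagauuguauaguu
let-7g-5p: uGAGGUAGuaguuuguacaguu
let-7i-5p: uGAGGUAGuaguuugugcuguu
miR-98-5p: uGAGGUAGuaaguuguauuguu

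The 10 precursors give 9 distinct 5p sequences with 1 seed, since let-7f-1 and let-7f-2 give the same 5p arm. Pairs of them differ in 1 to 6 bases, all outside the seed. Relative to let-7a-5p, let-7c-5p carries A19G, let-7e-5p U9G and let-7f-5p G12A, with positions counted from the 5′ end and the let-7a base first. miR-98-5p differs from let-7a-5p by G11A and A19U, and let-7i-5p by G12U, A17G, U18C and A19U.

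The 3p sequences are shown because several results below lie at their last bases; capitals again mark bases 2 to 8.
let-7a-1-3p: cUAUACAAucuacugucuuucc
let-7c-2-3p: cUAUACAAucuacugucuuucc
let-7b-3p: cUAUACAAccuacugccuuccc
let-7d-3p: cUAUACGAccugcugccuuucu
let-7e-3p: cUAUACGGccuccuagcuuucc
let-7f-1-3p: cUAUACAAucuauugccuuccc
let-7f-2-3p: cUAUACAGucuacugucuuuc
let-7g-3p: aCUGUACAggccacugccuugc
let-7i-3p: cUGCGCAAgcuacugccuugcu
miR-98-3p: cUAUACAAcuuacuacuuuccu
The 3p arms of let-7a-1 and let-7c-2 are the same sequence, so their reads cannot be told apart and are given under a joint name, let-7a-1-3p/let-7c-2-3p. For let-7g-3p the RefSeq sequence begins 1 base before the reads, and the capitals above are not bases 2 to 8 of the RNA found here; its most frequent read is shown for comparison, with bases 2 to 8 of the read in capitals.
let-7g-3p, most frequent read: cTGTACAGgccactgccttgc

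In the mouse genome (GRCm38.p6, GENCODE M21) the members lie in 6 places on 6 chromosomes. mmu-let-7a-1 (chr13:48538179-48538272), let-7f-1 (chr13:48537829-48537917) and let-7d (chr13:48536012-48536114) lie together on the minus strand in exons of the long non-coding RNA 6720427I07Rik. let-7c-2 (chr15:85706603-85706697) and let-7b (chr15:85707319-85707403) lie on the plus strand in exons of the non-coding Lncppara. mmu-let-7f-2 (chrX:151912346-151912428) and mmu-mir-98 (chrX:151913214-151913321) lie in an intron of Huwe1, which encodes a ubiquitin ligase. mmu-let-7e (chr17:17830352-17830444) lies in an intron of Spaca6, mmu-let-7g (chr9:106178840-106178927) in an intron of Wdr82, and let-7i (chr10:122985640-122985724) in an exon of the transcribed pseudogene D630033A02Rik.

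The 12 libraries held 1933375 to 7892147 counted reads and 62878432 in all. Of these reads, 43.8% differed in 1 base from the precursor, most often in the last base; the last base differed in 32.9 ± 3.8% of reads of a Keluoxin library and 29.3 ± 0.9% of a model library (SD, n = 6 each). The share of reads with any difference was 48.2 ± 2.5% in Keluoxin and 40.7 ± 1.7% in model libraries, and it separated the groups, with 43.9 to 50.6% in Keluoxin and 39.2 to 43.2% in model libraries. Keluoxin replicate 4 stood apart from the others of its group: it had the lowest last-base share of all 12 libraries at 25.7%, against 32.0 to 36.0% in the other Keluoxin libraries and 28.1 to 30.2% in the model libraries. The same library had the lowest summed level of the photoreceptor miRNAs (miR-183, miR-96 and miR-182, in all arms), 183981 normalized CPM (read counts scaled by library size), against 277663 or more in each other library. Its summed level of the muscle miRNAs (miR-1a, miR-133a and miR-206) was 1852 CPM, against 285 to 431 CPM in the other 11. Retinal markers were abundant in every library, with the photoreceptor miRNAs at 312562 ± 74059 CPM in Keluoxin and 383253 ± 19634 CPM in model libraries. Over all 755 arms tested for their level, 118 passed an adjusted p of 0.05, which is 15.6%. On counts simulated for this comparison with a common spread for all arms, 35.8% of 2-fold and 97.0% of 4-fold changes were recovered.

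Reads were assigned to members with a limit set by their likeness. In all, 5327605 reads matched at least 1 member, and 30.9% of them matched several members, mostly the 1521594 reads common to let-7f-1 and let-7f-2. Reads shared only with a copy that was left out are not in that percentage. Such were the 418527 reads of let-7a-1 and let-7a-2 and the 393749 reads of let-7c-1 and let-7c-2. When reads were counted per mature arm, 97.3% fell in a single arm and 2.73% were split equally between arms. An 18-nt read, shown because it is the most abundant one that 4 arms share, had 18254 reads and matched let-7a-5p, let-7c-5p, let-7f-5p and let-7g-5p with at most 1 difference.
shared 18-nt read: tGAGGTAGtagtttgtat

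A 23-nt read stands for another kind of ambiguity. It counts as G9T on let-7e-5p, with the let-7e base first, had 5310 reads and matched the 5p arms of let-7a, let-7e and let-7f.
read shared with let-7e: tGAGGTAGtaggttgtatagttg
For miR-98-5p, reads with A11G made up 5.94% of the arm, and such reads were shared with let-7a-5p and let-7c-5p. let-7j was not a separate signal: 23900 of the 26880 reads that matched it, 88.9%, were the let-7i-5p sequence with an A after it, and 121 matched let-7j without a difference.

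The 5p arms made up nearly all family reads, and their order by mean level was the same in both groups apart from let-7b-5p and let-7d-5p, which changed places. Reads that matched a member were 9.20 ± 1.24% of a Keluoxin library and 7.77 ± 1.08% of a model library, and the ranges overlapped (7.25 to 10.95% in Keluoxin, 6.53 to 9.46% in model). The 3p arms had 0.732 ± 0.179% of the family's reads in Keluoxin and 0.788 ± 0.049% in model libraries. Within the summed 5p arms, let-7g-5p took 37.5 ± 2.8% in Keluoxin and 38.4 ± 1.7% in model libraries, and let-7f-5p took 29.8 ± 1.3% in Keluoxin and 30.9 ± 1.3% in model libraries. These 5p arms thus held most of the family's reads in every library, and miR-98-5p, at 0.300 ± 0.040% in Keluoxin and 0.289 ± 0.031% in model libraries, the fewest.

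By mean level over the 12 libraries the order ran let-7g-5p, let-7f-5p, let-7a-5p, let-7c-5p, let-7i-5p, let-7b-5p, let-7d-5p, let-7e-5p, miR-98-5p. Mature arms are nearly equal in length, so CPM serve to compare them, apart from differences in how well each sequence is ligated. let-7g-5p exceeded let-7f-5p in 12 of 12 libraries, by 0.32 ± 0.11 on the log2 scale (SD over libraries). let-7f-5p stood above let-7a-5p, let-7i-5p above let-7b-5p, let-7d-5p above let-7e-5p and let-7e-5p above miR-98-5p in 12 of 12 as well, by 1.20 to 2.13 on the log2 scale. In the order, 3 neighbouring pairs did not differ beyond their spread: let-7a-5p over let-7c-5p (9 of 12 libraries), let-7c-5p over let-7i-5p (9 of 12) and let-7b-5p over let-7d-5p (8 of 12).

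None of the 9 5p arms passed the test for a difference between Keluoxin and model (edgeR), none had an unadjusted p under 0.05, and DESeq2 called none of them. let-7g-5p had 17464, 33553 and 47372 CPM in Keluoxin libraries and 26941, 29464 and 39654 CPM in model libraries (lowest, median and highest of 6). Its Keluoxin range enclosed the model range, with replicate 4 lowest and replicate 2 highest. The log2 fold change of let-7g-5p, Keluoxin over model, was 0.09 ± 0.20 (SE, adjusted p = 0.773, edgeR). let-7f-5p behaved alike in its ends, with 16528 CPM in Keluoxin replicate 4 and 36739 in replicate 2, and averaged 26213 ± 7111 CPM in Keluoxin and 25111 ± 2992 CPM in model libraries.

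let-7a-5p averaged 7525 ± 1430 CPM in Keluoxin and 6759 ± 755 CPM in model libraries, let-7c-5p 7276 ± 1298 in Keluoxin and 6149 ± 527 CPM in model libraries, and let-7i-5p 6657 ± 1535 in Keluoxin and 5862 ± 751 CPM in model libraries. let-7b-5p had 1993, 2964 and 3254 CPM in Keluoxin libraries and 2167, 2355 and 2644 CPM in model libraries (lowest, median and highest). For let-7b-5p 5 of 6 Keluoxin libraries lay above every model library and replicate 4 lay below them all; its log2 fold change was 0.26 ± 0.12 (SE, adjusted p = 0.156, edgeR). Among the 5p arms, let-7b-5p and let-7c-5p had the 2 largest log2 fold changes. Both passed when libraries were scaled to total reads (0.41, adjusted p = 0.0162, and 0.40, adjusted p = 0.0130, edgeR), a scaling that moves the median of all arms to 0.19, and let-7b-5p passed without Keluoxin replicate 4 (0.27, adjusted p = 0.0380).

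let-7d-5p averaged 2493 ± 205 CPM in Keluoxin and 2411 ± 381 CPM in model libraries, and let-7e-5p 1102 ± 144 in Keluoxin and 1031 ± 81 CPM in model libraries. miR-98-5p had 201, 253 and 321 CPM in Keluoxin libraries and 200, 216 and 331 CPM in model libraries (lowest, median and highest). The groups overlapped for all 9 arms. All 9 log2 fold changes were above 0, from 0.05 to 0.26, but 7 of them turned negative with upper-quartile scaling (those of let-7a-5p, let-7d-5p, let-7e-5p, let-7f-5p, let-7g-5p, let-7i-5p and miR-98-5p), which moves the median of all arms to -0.17, against 0.01 with the TMM scaling used here.

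**Figure D1:**
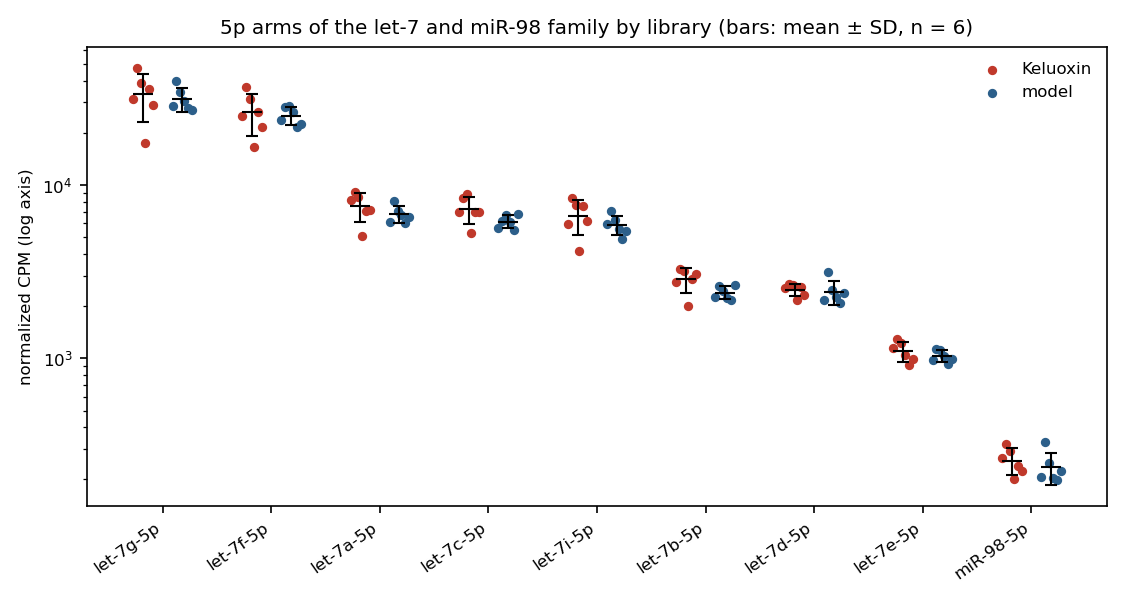
Normalized CPM of the 9 5p arms (log axis) in each of 6 Keluoxin (red, left) and 6 model libraries (blue, right), with mean ± SD in black. The groups overlap for each arm, and let-7g-5p runs from 17464 to 47372 CPM in Keluoxin libraries.

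The spread of the 5p arms was wider among Keluoxin libraries for 7 of 9 arms. The matching share over all arms is not given, so this is no trait shown to be particular to the family. The coefficient of variation of let-7g-5p was 30.3% in Keluoxin and 15.6% in model libraries, and that of let-7b-5p 16.2% in Keluoxin and 8.60% in model libraries. let-7d-5p (8.22% in Keluoxin, 15.8% in model) and miR-98-5p (17.4% in Keluoxin, 21.1% in model) had the wider spread in model libraries. Without Keluoxin replicate 4, a comparison added after the data were seen, the coefficient of variation in Keluoxin was 19.7% for let-7g-5p, 6.81% for let-7b-5p (below the model value) and 11.2% for let-7a-5p, against 11.2% in model libraries, and 6 of 9 arms had the wider spread in Keluoxin. The summed 5p level was 53927, 87221 and 117632 CPM in Keluoxin and 71242, 78170 and 96387 CPM in model libraries (lowest, median and highest). Keluoxin replicate 4, which held the least photoreceptor and the most muscle miRNA, was the lowest, and the part of that make-up in the family's level was not tested. In tissue libraries, fewer cells of a type and less RNA per cell cannot be told apart.

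The 5p arms varied together from library to library. With group means taken off, all 36 pairs of the 9 arms correlated positively over the 12 libraries (median r = 0.79), the closest being let-7g-5p with let-7i-5p and with let-7f-5p (r = 0.96 each). Among 169 arms outside the family, miR-25-3p (r = 0.94), miR-382-5p (r = 0.91) and miR-190b-5p (r = 0.90) came closest to the summed 5p level over the same 12 libraries. Without the 2 libraries whose summed 5p level lay farthest from their group mean, r was 0.81, 0.77 and 0.74. These values share library, depth and scaling, and are descriptions.

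On the 3p side let-7f-2-3p was the only arm that passed. let-7f-2-3p had 64.1, 80.4 and 101 CPM in Keluoxin libraries and 48.3, 60.9 and 63.9 CPM in model libraries (lowest, median and highest). The groups did not overlap, by a narrow margin between Keluoxin replicate 4 and model replicate 1. It averaged 80.5 ± 12.3 CPM in Keluoxin and 58.3 ± 6.6 CPM in model libraries, a log2 fold change of 0.47 ± 0.13 (SE, adjusted p = 0.0309, edgeR). It was 1 of 18 family arms tested, beside 15.6% of all arms. The call was lost with upper-quartile scaling (0.28, adjusted p = 0.203, edgeR), without a filter on low counts (0.43, adjusted p = 0.136), with the replicate number as a block (0.46, adjusted p = 0.0546) and without any 1 of 8 libraries (Keluoxin replicates 1, 2, 3 and 6, model replicates 2, 3, 4 and 5), where the adjusted p over the 12 left-out libraries ran from 0.0243 to 0.0795.

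mir-98 lies beside let-7f-2 in Huwe1, and neither of its arms passed: miR-98-3p averaged 8.85 ± 3.46 CPM in Keluoxin and 8.87 ± 1.44 CPM in model libraries. The 5p arm of let-7f-2 was counted jointly with that of let-7f-1, so of the arms as counted only the 3p arm is particular to let-7f-2. With both arms included, 1521594 reads matched both precursors, 42978 let-7f-2 alone and 28294 let-7f-1 alone. The 5p reads that matched 1 of the 2 alone were not compared between the groups. The 3p arm of let-7f-1 averaged 14.7 ± 3.8 CPM in Keluoxin and 14.9 ± 1.4 CPM in model libraries.

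let-7e-3p had 12.3, 17.2 and 19.5 CPM in Keluoxin libraries and 19.7, 22.1 and 29.5 CPM in model libraries (lowest, median and highest). The groups did not overlap, while its log2 fold change of -0.50 ± 0.16 missed the threshold (SE, adjusted p = 0.0582, edgeR), which it passed in DESeq2 (adjusted p = 0.0264), with reads of 1 arm only (0.0499) and with the divided counts as deposited (0.0441). let-7d-3p averaged 253 ± 37 CPM in Keluoxin and 304 ± 60 CPM in model libraries, and let-7a-1-3p/let-7c-2-3p 211 ± 38 in Keluoxin and 206 ± 40 CPM in model libraries. let-7b-3p, let-7i-3p and let-7g-3p stayed below 22 CPM in every library, and let-7g-3p had 174 reads in all. Over the 18 arms the median log2 fold change was 0.07, with 13 above and 5 below 0, beside 0.01 over all arms; with upper-quartile scaling 9 of the 18 change sign.

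**Figure D2:**
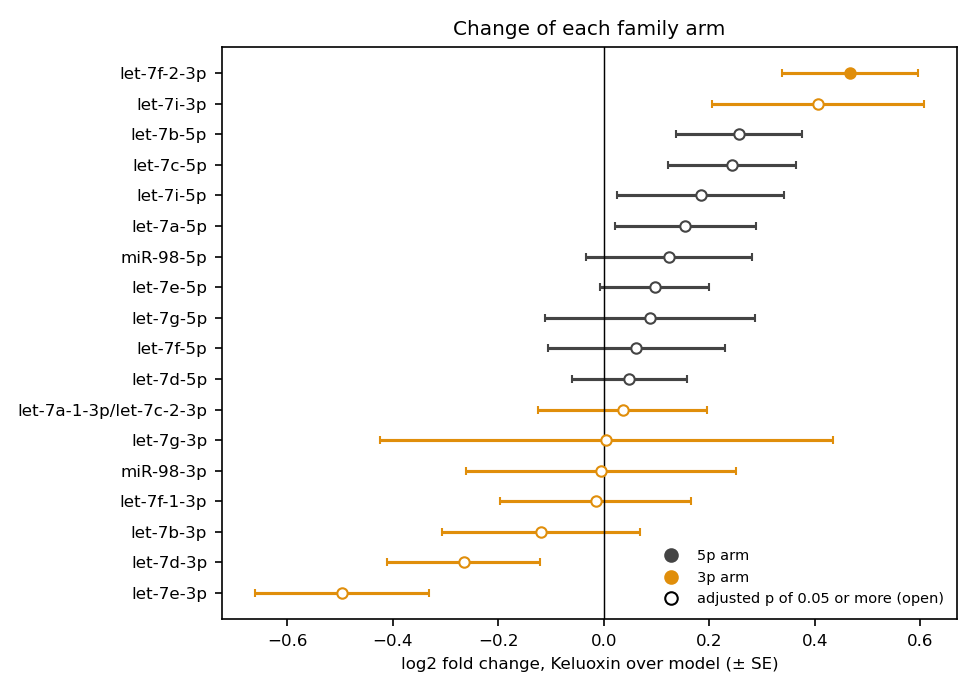
Log2 fold change, Keluoxin over model, of the 18 family arms with its SE; 5p arms in grey, 3p arms in orange, filled where the adjusted p is under 0.05. Only let-7f-2-3p at 0.47 is filled, and the 9 5p arms lie between 0.05 and 0.26 with TMM scaling; 7 of these 9 fall below 0 with upper-quartile scaling.

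The ratio of 5p to 3p reads of a precursor does not depend on how libraries are scaled. let-7e had ratios of 58.9, 63.7 and 72.8 in Keluoxin libraries and 36.0, 43.3 and 57.1 in model libraries (lowest, median and highest). Every Keluoxin library lay above every model library. The ratio averaged 65.5 ± 5.7 in Keluoxin and 44.1 ± 7.6 in model libraries, a log2 difference of 0.58 ± 0.14 (SE, adjusted p = 0.0228, limma). It was the 1 pair called of 10 in the family, beside 16.7% of all 168 pairs tested. The call was lost among reads without a difference (0.47, adjusted p = 0.0997, limma) and without Keluoxin replicate 2 or model replicate 3, 4 or 6, with adjusted p from 0.00832 to 0.0658 over the 12 left-out libraries.

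Other members spanned a wide range of ratios, and none was called with all reads. let-7d had the most even arms, 10.01 ± 1.54 in Keluoxin and 7.98 ± 0.64 in model libraries (log2 difference 0.32 ± 0.14, SE, adjusted p = 0.136, limma). let-7a-5p over let-7a-1-3p/let-7c-2-3p stood at 35.7 ± 3.7 in Keluoxin and 33.3 ± 3.2 in model libraries. Its 5p reads include those shared with let-7a-2 and its 3p reads those of let-7c-2, so it is the ratio of no single precursor. The pair of let-7c-5p was set over the same 3p reads. let-7f-5p over let-7f-1-3p stood at 1861 ± 699 in Keluoxin and 1683 ± 218 in model libraries. let-7f-5p over let-7f-2-3p stood at 326 ± 79 in Keluoxin and 436 ± 83 in model libraries, a log2 difference of -0.44 ± 0.19 (SE, adjusted p = 0.130, limma). Among reads without a difference, which leaves out the leading read of let-7f-2-3p, it was -0.83 ± 0.25 and passed (adjusted p = 0.0419, limma). The 5p reads were counted jointly for both let-7f precursors, so these ratios do not show how much of each precursor there was.

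**Figure D3:**
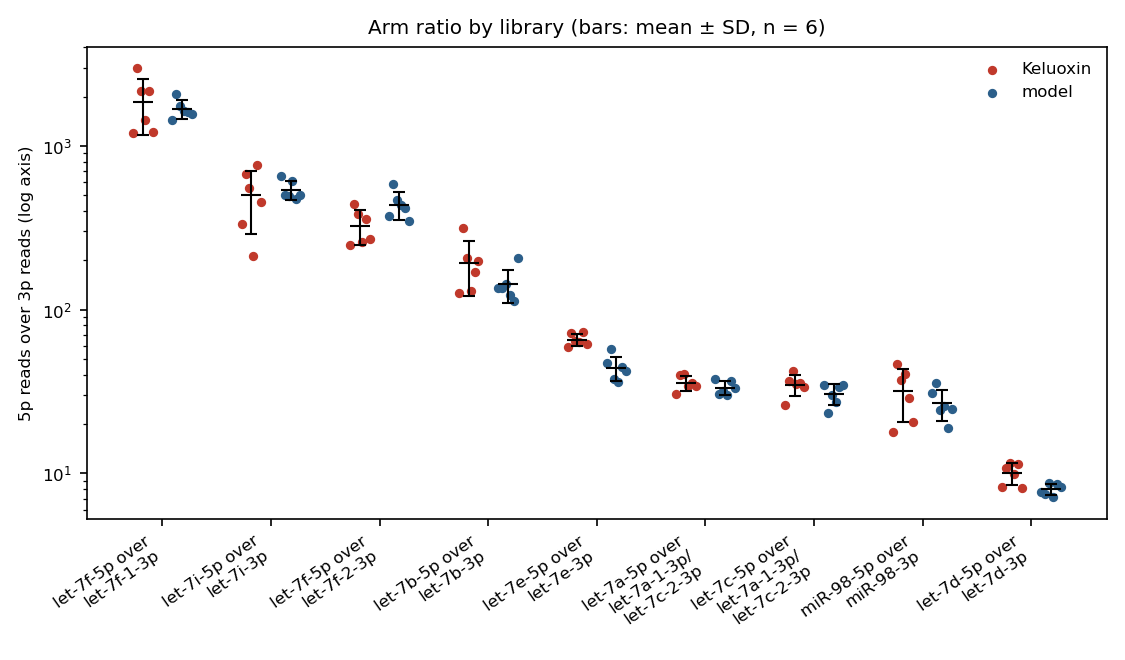
Reads of the 5p arm over reads of the 3p arm (log axis) in 6 Keluoxin (red, left) and 6 model libraries (blue, right), with mean ± SD; let-7g is left out, as its 3p arm had 174 reads. Only for let-7e do the groups not overlap (58.9 to 72.8 in Keluoxin, 36.0 to 57.1 in model libraries).

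The 5p arms differed in read length, in the share of 20-nt reads, which are 2 nt shorter than the mature sequences. This share was singled out after its values were seen, because the groups separated. The p-values given for it below, also those without a library, do not cover that choice and are no independent support. In let-7e-5p it was 2.28, 2.69 and 3.47% in Keluoxin libraries and 4.76, 5.35 and 6.29% in model libraries (lowest, median and highest). For let-7a-5p it was 2.08, 2.48 and 3.22% in Keluoxin and 4.00, 4.602 and 5.23% in model libraries. In both arms all 6 Keluoxin libraries lay below all 6 model libraries, as they did for let-7c-5p, let-7d-5p, let-7f-5p and let-7g-5p, but not for let-7b-5p, let-7i-5p and miR-98-5p. The share of all arms that separate in this way is not given here.

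In a fit over 364 arms, each with 50 or more reads per library, all 9 5p arms passed as lower in Keluoxin, beside 12.9% of all arms lower and 10.4% higher. The difference in log2 odds was -1.003 ± 0.134 for let-7e-5p (SE, adjusted p = 0.000508, limma), -0.87 ± 0.14 for let-7a-5p (adjusted p = 0.0018) and -1.07 ± 0.21 for let-7d-5p (adjusted p = 0.00448). let-7i-5p was nearest to the threshold at -0.70 ± 0.22 (adjusted p = 0.0440, limma). Over all 12 family arms tested the median was -0.84, beside -0.12 over all arms. The 3 tested 3p arms were not called: let-7d-3p had 15.4 ± 1.4% in Keluoxin and 12.9 ± 1.5% in model libraries.

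The call held without each of the 12 libraries in turn for 6 of the 9, let-7a-5p, let-7c-5p, let-7d-5p, let-7e-5p, let-7f-5p and let-7g-5p. let-7b-5p lost it without Keluoxin replicate 3 or 6 (highest adjusted p = 0.0528, limma), miR-98-5p without any 1 of 4 libraries (0.0556) and let-7i-5p without any 1 of 8 (0.0906). With the replicate number as a block, let-7i-5p (adjusted p = 0.0575, limma) and miR-98-5p (0.0520) were not called.

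**Figure D4:**
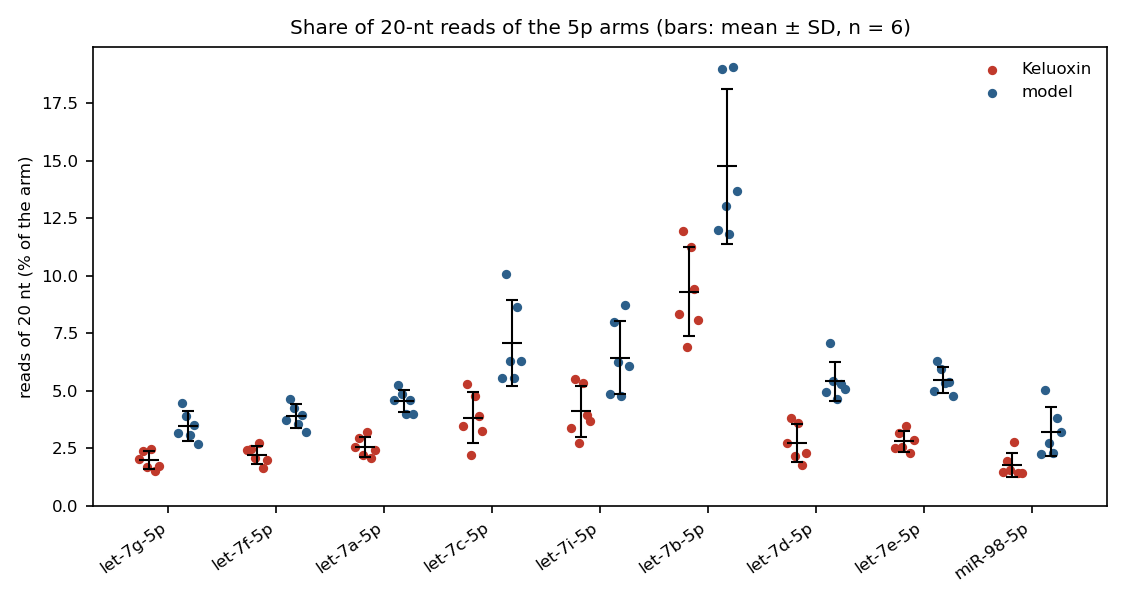
Share of the reads of each 5p arm that were 20 nt long, in percent, in 6 Keluoxin (red, left) and 6 model libraries (blue, right), with mean ± SD. Groups do not overlap for let-7a-5p, let-7c-5p, let-7d-5p, let-7e-5p, let-7f-5p and let-7g-5p. The share of all arms without overlap is not given.

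let-7b-5p had the most 20-nt reads, 9.31 ± 1.94% in Keluoxin and 14.8 ± 3.4% in model libraries. Reads of 22 nt, the length of the mature sequence, were 52.9 ± 2.3% of let-7e-5p in Keluoxin and 48.1 ± 1.5% in model libraries, and of let-7g-5p 63.0 ± 1.8% in Keluoxin and 58.6 ± 1.4% in model libraries. Shares at other lengths went both ways. They are given for the 9 5p arms alone, without a test and without the share over all arms. Reads of 18 nt had the lower mean in Keluoxin for 9 of 9 5p arms, and for let-7g-5p the groups separated, with 1.79 ± 0.39% in Keluoxin and 3.59 ± 0.50% in model libraries; reads this short can be shared between arms, as the one above. Reads of 19 nt had the lower mean in Keluoxin for 8 of 9 arms, among them let-7c-5p with 0.980 ± 0.382% in Keluoxin and 2.18 ± 1.02% in model libraries. Reads of 21 nt had the higher mean in Keluoxin for 8 of 9. Longer than the mature sequence, reads of 23 nt had the lower mean in Keluoxin for 7 of 9 arms, without overlap for let-7g-5p (5.97 ± 0.75% in Keluoxin, 7.25 ± 0.14% in model) and let-7f-5p (5.20 ± 0.74% in Keluoxin, 6.17 ± 0.28% in model). Reads of 24 nt had the lower mean in Keluoxin for 8 of 9 arms. The mean length of let-7g-5p reads was 21.67 ± 0.05 nt in Keluoxin and 21.57 ± 0.04 nt in model libraries. For mean length, none of the 12 family arms passed, beside 7.69% of all arms (limma). At an unadjusted p under 0.05 were 3 of the 12, let-7a-5p, let-7c-5p and let-7g-5p, beside 109 of all 364 arms. Without Keluoxin replicate 4, 4 of the 12 passed (let-7a-5p, let-7e-5p, let-7f-5p and let-7g-5p), beside 72 of all 364 arms.

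The 5′ ends, which set the seed, were nearly fixed. At least 99.2% of the reads of each 5p arm began at a single position. No family arm passed the test for a shift of the start, beside 0.824% of all arms (limma). None had an unadjusted p under 0.05 for it, beside 63 of all 364 arms. miR-98-3p, with 556 reads in all, had 16.3 ± 10.5% of reads at another start in Keluoxin and 18.5 ± 7.7% in model libraries. Internal differences gave no family call, beside 4.12% of all arms (limma). They gave 1 unadjusted p under 0.05, that of let-7a-1-3p/let-7c-2-3p, beside 67 among all 364 arms. They made up 5.60 ± 1.08% of let-7g-5p reads in Keluoxin and 5.73 ± 0.21% in model libraries.

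A U at the 3′ end that differs from the precursor marked several 3p arms. For let-7a-1-3p/let-7c-2-3p, let-7f-2-3p, let-7b-3p and let-7f-1-3p the most frequent read was not the genomic sequence but a read with C22T, the precursor base first. The leading read of each and, for the joint arm, the genomic form are shown with the last base in capitals; T in a read is U in the RNA.
let-7a-1-3p/let-7c-2-3p, 48.2% of the arm: ctatacaatctactgtctttcT
let-7a-1-3p/let-7c-2-3p, genomic form, 12.1% of the arm: ctatacaatctactgtctttcC
let-7f-2-3p, 58.1% of the arm: ctatacagtctactgtctttcT
let-7b-3p, 41.8% of the arm: ctatacaacctactgccttccT
let-7f-1-3p, 33.4% of the arm: ctatacaatctattgccttccT
let-7d-3p, let-7i-3p and miR-98-3p end in U in the genome, so a U added to a read that stops before that base looks like the precursor and is not counted; the low shares of these arms cannot be set against those above. After the 5p arms, too, an added U is often hidden in the same way.

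Fewer reads of the 3 tested 3p arms ended in such a U in Keluoxin libraries. For let-7a-1-3p/let-7c-2-3p the share was 44.5, 47.2 and 50.8% in Keluoxin and 51.2, 54.5 and 57.9% in model libraries (lowest, median and highest). The groups did not overlap, Keluoxin replicate 3 and model replicate 5 coming closest. Its difference in log2 odds was -0.41 ± 0.10 (SE, adjusted p = 0.0124, limma). The share of let-7d-3p was 5.97, 6.47 and 7.79% in Keluoxin and 7.69, 9.36 and 10.8% in model libraries. Keluoxin replicate 4 overlapped model replicate 5 there, and the difference was -0.53 ± 0.11 (SE, adjusted p = 0.00532, limma). Counting all reads of let-7d-3p that ended in U, whether it matched the precursor or not, the share was 48.7 ± 3.2% in Keluoxin and 48.9 ± 1.3% in model libraries. Both calls held without each of the 12 libraries in turn.

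let-7f-2-3p ended in a differing U in 53.3, 55.3 and 61.0% of reads in Keluoxin and 56.1, 63.1 and 69.4% in model libraries (lowest, median and highest). Its groups overlapped through Keluoxin replicates 2 and 4 and model replicate 6. The difference of -0.44 ± 0.14 (SE, adjusted p = 0.0443, limma) passed in 2 of the 12 fits without a library, those without Keluoxin replicate 4 or model replicate 6. The 3 were all the 3p arms with enough reads to be tested, and all 3 fell; with 2 of the 9 5p arms, 5 of the 12 family arms passed, beside 25% of all arms (6.87% lower, 18.1% higher). Too rare to be tested, let-7b-3p had 53.7 ± 8.3% in Keluoxin and 58.3 ± 8.1% in model libraries, let-7f-1-3p 47.9 ± 6.9% in Keluoxin and 51.2 ± 4.7% in model libraries, and let-7e-3p 25.2 ± 4.4% in Keluoxin and 28.9 ± 2.7% in model libraries. let-7i-3p had 20.04 ± 6.20% in Keluoxin and 21.99 ± 5.04% in model libraries, and miR-98-3p 7.25 ± 5.04% in Keluoxin and 13.0 ± 4.3% in model libraries. let-7g-3p, with 174 reads, went the other way by its means, 45.8 ± 30.9% in Keluoxin and 19.6 ± 22.6% in model libraries. The groups overlapped for all 6.

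**Figure D5:**
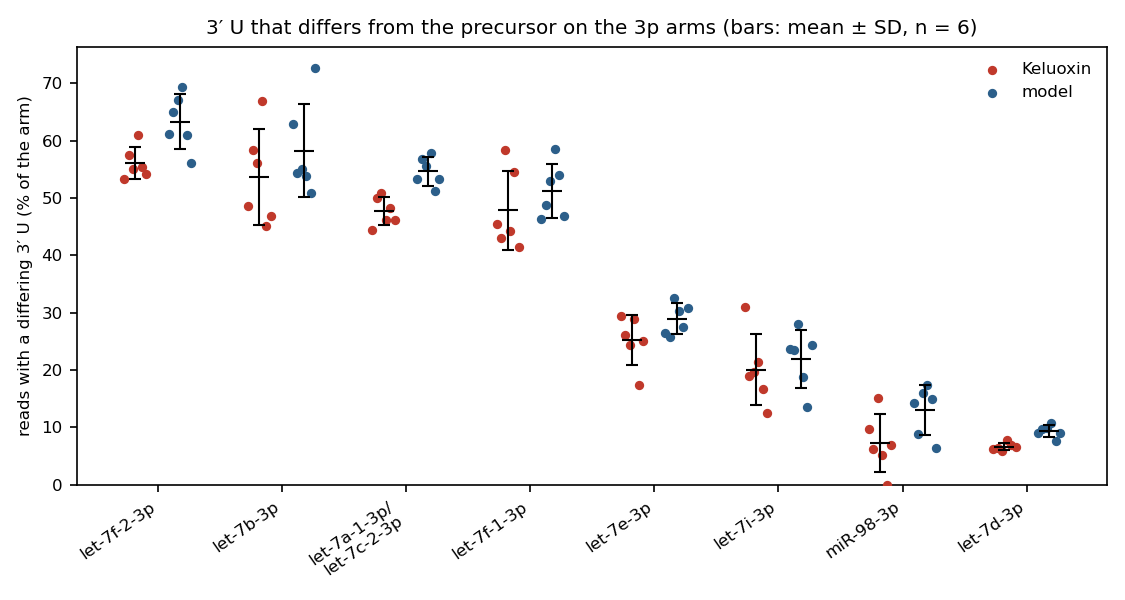
Share of reads of each 3p arm whose last base is a U that differs from the precursor, in percent, in 6 Keluoxin (red, left) and 6 model libraries (blue, right), with mean ± SD; let-7g-3p is left out for its 174 reads. let-7a-1-3p/let-7c-2-3p shows no overlap (44.5 to 50.8% in Keluoxin, 51.2 to 57.9% in model libraries).

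Other end bases moved at the same time, in the family and across the libraries. C that differs from the precursor ended more reads in Keluoxin for all 12 tested family arms, beside 64.8% of all arms higher (limma); 4 were called without Keluoxin replicate 1, Keluoxin replicate 6 or model replicate 3. For a differing G at the end, 6 of 12 family arms passed as higher, beside 56% of all arms. Without Keluoxin replicate 4 all 12 were called, beside 248 of all 364 arms. Without model replicate 2 or 4, 3 were called. In let-7g-5p, C ended 14.8 ± 2.7% of reads in Keluoxin and 10.3 ± 1.9% in model libraries. In let-7a-1-3p/let-7c-2-3p, G ended 8.11 ± 2.40% in Keluoxin and 4.76 ± 1.09% in model libraries. These last-base differences moved with the group in most arms of the libraries, as did the share of reads with any difference in all 12 libraries, and their part in the shares of U and of 20-nt reads was not tested. Keluoxin replicate 4 had 46.3% U in let-7a-1-3p/let-7c-2-3p, below every model library, but 7.79% in let-7d-3p and 61.0% in let-7f-2-3p, within the model range. Counting all reads that ended in U, let-7a-1-3p/let-7c-2-3p had 56.8 ± 3.8% in Keluoxin and 61.9 ± 2.6% in model libraries, and let-7f-2-3p 57.6 ± 3.2% in Keluoxin and 65.0 ± 5.1% in model libraries.

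On the 5p arms a differing U was rare, with 2 arms called as higher in Keluoxin. let-7a-5p had 0.338 ± 0.047% in Keluoxin and 0.254 ± 0.029% in model libraries (log2 odds 0.41 ± 0.12, SE, adjusted p = 0.0286, limma). let-7b-5p had 2.05 ± 0.13% in Keluoxin and 1.73 ± 0.13% in model libraries (0.25 ± 0.08, adjusted p = 0.0438). Neither was called with the replicate number as a block (adjusted p = 0.0742 and 0.0939, limma), and without a library they kept the call in 6 and 2 of 12 fits. let-7i-5p carried the most of the 5p arms, 9.31 ± 0.45% in Keluoxin and 10.3 ± 0.7% in model libraries, and was not called.

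A differing A ended fewer reads of all 12 tested family arms in Keluoxin by estimate, and 1 passed, beside 12.6% of all arms lower. That arm, let-7i-5p, had 9.41 ± 1.14% in Keluoxin and 11.6 ± 0.6% in model libraries (log2 odds -0.34 ± 0.10, SE, adjusted p = 0.0365, limma). The let-7i-5p sequence with an A after it, 23900 reads, was split equally with let-7j-5p, so these shares count it only in part. The call with those reads undivided was not tested. It was lost without any 1 of 8 libraries and with the replicate number as a block (adjusted p = 0.0738, limma). Without Keluoxin replicate 1, 8 of the 12 passed, and calls over all 364 arms, lower or higher, rose as well, from 59 to 99. The median over the 12 was -0.28, beside -0.17 over all arms.

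The miRNAs transcribed with let-7 copies in mouse, miR-99a, miR-99b, miR-100, miR-125a and miR-125b, gave 10 tested arms, and no test set them against the family. Of these arms 3 passed, beside 15.6% of all arms: 1 was higher in Keluoxin, miR-99a-3p (log2 fold change 1.04 ± 0.21, SE, adjusted p = 0.00917, edgeR), and 2 were lower, miR-125b-5p (-0.52 ± 0.12, adjusted p = 0.0124) and miR-99b-5p (-0.47 ± 0.10, adjusted p = 0.0112). Their median was -0.19, beside 0.01 over all arms. let-7e lies with miR-99b and miR-125a, and its 5p arm stood at 0.10 ± 0.10 (SE, adjusted p = 0.509, edgeR), which turns negative with upper-quartile scaling; miR-125a-5p stood at -0.10 ± 0.16 (adjusted p = 0.666). The endothelial miR-126a, summed over 2 arms, was at 1276 ± 153 CPM in Keluoxin and 1815 ± 185 CPM in model libraries without overlap. Of these arms 1 had the higher mean in Keluoxin. The erythroid miRNAs (miR-451a, miR-144 and miR-486a) were at 377 ± 280 CPM in Keluoxin and 99.4 ± 7.1 CPM in model libraries. Keluoxin replicate 1, at 87.1 CPM, lay below every model library there. Groups overlapped for the neuronal miR-124 and miR-9 (99561 ± 13396 CPM in Keluoxin, 119784 ± 5946 CPM in model). They also did for the pigment epithelium miR-204 and miR-211 (11261 ± 723 and 10699 ± 1149 CPM) and the liver miR-122 (15.5 ± 15.2 and 2.51 ± 1.34 CPM). The part of these miRNAs in the values of the family was not tested.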

How the data were processed

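Each deposited table lists, per the file headers, distinct read sequences with whole-number read counts, not normalized, and the precursors they match; lengths and positions, the other deposited values, carry no normalization. Novoalign, Bowtie, cutadapt and bcl2fastq appear in the submitters' processing notes without versions; the genome build behind the files is not given in the sources used here. Reads had at least 2 copies, 15 to 51 nt and at most 1 difference to the precursor.

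Each read was counted once, undivided, for the mature arm given by its side of the hairpin, and split equally where it matched several arms. Library depth was 1933375 to 7892147 reads. Levels were compared on 755 arms with edgeR 4.0.16 (TMM scaling, filter on low counts, quasi-likelihood test); arm ratios (10 or more reads per arm in 6 libraries, 0.5 added) and end forms (at least 50 reads in every library) with limma 3.58.1, in R 4.3.3, with Benjamini-Hochberg adjustment over all arms tested at 0.05. Shares were tested as log2 odds with 0.5 added. The fits were tested on simulated data: 8.96%, 35.8% and 97.0% of 1.5-, 2- and 4-fold changes of arm levels were recovered, with 2 of 555 unchanged arms called, and for ratios 73.8% of 42 pairs shifted 2-fold among 168. Alternatives were other scalings, filters, DESeq2 1.42.0, a replicate block, subsets of reads and leaving out each library.

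All arms of the members are given; outside the family, the 3 arms most correlated with the summed 5p level and the miRNAs transcribed with let-7 copies were given. The members and lists were chosen with earlier results of these data known. The shares of 20-nt reads and of C and G ends were added after the data were seen, and their p-values do not cover that choice. Names of precursors predicted by the submitters are not given.

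Replicate numbers are shared between the groups but no label says they pair samples: the correlation of same-numbered libraries ran from 0.04 to 0.29, so no block was used.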

Additional observations from a re-analysis of the deposited data

Results flagged for a closer look

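In each group of 6, the highest or lowest library was looked at for a gap to its nearest neighbour that is large for the group's range. Of 128 groups looked at, 12 held such a library, and chance alone gives about 1 in 20. Keluoxin replicate 4 had the shortest mean read length for let-7e-5p (21.41 nt), let-7f-5p (21.40 nt) and let-7g-5p (21.57 nt), and the highest share of a differing 3′ U on let-7f-5p, 0.462%. Model replicate 2 had the shortest mean read length for let-7c-5p (21.25 nt), let-7d-5p (21.25 nt) and miR-98-5p (21.46 nt) and the lowest share of a differing 3′ A on let-7c-5p, 9.42%. Model replicate 1 had the highest share of a differing 3′ A on miR-98-5p, 10.9%. The ratio of 5p to 3p reads was highest for let-7b in model replicate 6 (206), and for let-7g in Keluoxin replicate 2 (49735) and model replicate 3 (56827). The let-7g ratios divide by a 3p arm with 174 reads over all libraries.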

How the results depend on the processing

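Over all tests of single family arms, 1267 values without 1 library and 427 under other settings kept their direction and their side of the threshold; 135 and 10 lost a call, 23 and 10 gained one, and 63 and 32 changed sign. With upper-quartile scaling the arm levels called in the family went to 0, and let-7a-1-3p/let-7c-2-3p stood at -0.16, let-7a-5p at -0.033, let-7d-5p at -0.14, let-7e-5p at -0.085, let-7f-5p at -0.13, let-7g-3p at -0.13, let-7g-5p at -0.10, let-7i-5p at -0.0024 and miR-98-5p at -0.059 (log2 fold change). Scaled to total reads 3 arms were called, and let-7b-3p stood at 0.069, let-7f-1-3p at 0.16 and miR-98-3p at 0.17. RLE size factors put let-7g-3p at -0.0094 and DESeq2 at -0.0066. No filter on low counts left 0 called, with let-7a-1-3p/let-7c-2-3p at -0.0072 and let-7g-3p at -0.045; DESeq2 called 190 arms in all and 2 of the family. Reads without a difference gave 73 called arms, with let-7f-1-3p at 0.28, let-7g-3p at -0.15 and miR-98-3p at 0.0032. Reads of 1 arm only gave 2 family calls, with let-7a-1-3p/let-7c-2-3p at -0.013 and let-7g-3p at -0.040; the divided counts as deposited gave 2, with these at -0.016 and -0.047 and let-7d-5p at -0.0081. Annotated precursors only gave 75 called arms, with let-7f-1-3p at 0.070 and miR-98-3p at 0.080. Among reads without a difference the log2 difference of let-7a-5p over let-7a-1-3p/let-7c-2-3p was -0.21 and that of let-7f-5p over let-7f-1-3p -0.13. With these reads, 2 arms were called for length and 5 for start shift. A minimum of 200 reads gave 9 arms called for length, 7 for start shift and 7 for internal differences, and 2 family arms for a 3′ A. The cause of these changes was not tested.

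With the replicate number as a block, 0 family arms were called for level, 3 for a 3′ U (let-7a-1-3p/let-7c-2-3p, let-7d-3p and let-7f-2-3p) and 0 for a 3′ A; over all arms, 18 ratios, 0 start shifts and 3 internal differences were called. Same-numbered libraries correlated at 0.04 to 0.29, 1 of 6 Keluoxin libraries correlated best with its own number, and the numbers are taken only as names.

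Leaving out each library in turn, calls ran from 63 to 201 for levels (family 0 to 2), 10 to 33 for ratios (0 to 1), 16 to 72 for length (0 to 4), 0 to 22 for start shift (0 to 0), 58 to 83 for a 3′ U (2 to 5), 41 to 99 for a 3′ A (0 to 8), 2 to 18 for internal differences (0 to 0), 51 to 97 for 20-nt reads (6 to 9), 201 to 254 for C ends (4 to 12) and 179 to 248 for G ends (3 to 12). The log2 fold changes that changed sign in these fits ran from -0.050 to 0.11 for let-7a-1-3p/let-7c-2-3p, -0.034 to 0.13 for let-7d-5p, -0.00053 to 0.14 for let-7e-5p, -0.15 to 0.032 for let-7f-1-3p, -0.066 to 0.12 for let-7f-5p, -0.23 to 0.18 for let-7g-3p, -0.047 to 0.16 for let-7g-5p and -0.22 to 0.050 for miR-98-3p, and the ratio of let-7f-5p over let-7f-1-3p from -0.081 to 0.18. On counts simulated with a common biological coefficient of variation of 0.46 for all arms, 1.5-fold changes of level were seldom recovered. The 5p arms of the family varied less, by at most 30.3% within a group (let-7g-5p in Keluoxin), so that rate is not theirs. The ends of the rarer 3p arms, from 174 reads for let-7g-3p, were not tested.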
